A study of Homo sapiens with 4 samples.

Results

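Translation initiation and elongation factors are the proteins that bring the ribosome to an mRNA, find its start codon and move it along the coding sequence. Their mRNAs were followed here in NUGC3, an established human stomach cancer cell line. The members were the protein-coding Ensembl genes whose symbols start with EIF1 to EIF6, EEF1 or EEF2, without the eIF2 alpha kinases (symbols starting EIF2AK), which gave 61 of 20269 protein-coding genes. RNA sequencing was done on 2 libraries of NUGC3 cells with a knockdown of MYC and 2 libraries of wild-type NUGC3 cells, and the question was how the RNA profile differs when MYC is lowered. The method of the knockdown, any control vector and whether the knockdown cells are 1 clone are not stated in the labels. Nor do the labels tie the duplicates to separate cultures, and the p-values therefore reflect only how much these 4 libraries vary, which may be technical.

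As background, initiation starts with eIF2, which carries the initiator tRNA to the small ribosomal subunit. The many-subunit complex eIF3 holds that subunit, and eIF4F (the cap-binding eIF4E, the scaffold eIF4G and the helicase eIF4A) brings it to the capped end of the mRNA. After the start codon is found, eEF1A delivers each charged tRNA, its exchange factor eEF1B reloads it with GTP, eEF2 moves the ribosome by a codon, and eIF5A helps at difficult peptide bonds. MYC is a transcription factor known to bind the DNA sequence CACGTG (the E-box) and to raise expression of genes for ribosomes and translation. Several of these factors, like ribosomal proteins, are known to be made from mRNAs that begin with a 5′ terminal oligopyrimidine (TOP) tract, a C followed by a run of pyrimidines, through which mTOR signalling controls their translation.

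The values are FPKM (fragments per transcript length and library size, a unit inferred from the values, where TPM with some rows left out is also possible), a share of the RNA pool and not an amount per cell, so fewer cells making an RNA and less of it per cell cannot be told apart. MYC itself was at 65.0 and 75.8 FPKM in the knockdown libraries, against 82.9 and 82.0 FPKM in the wild-type libraries. With a limma adjusted p of 0.237 that difference (log2 change −0.23, SE 0.10) was not called, nor was it in any alternative that kept all 4 libraries. With equal column sums it was −0.13 (limma adjusted p = 0.475). It was −0.12 without MYC knockdown replicate 1 and −0.34 without MYC knockdown replicate 2. All 7 epithelial markers examined were present in every library, whereas of 6 stomach and gut markers only CDX2 and GATA6 reached 1 FPKM, and TFF3 was listed at 0 in all libraries. The leukocyte marker PTPRC was listed at 0 in all of them too, with only CD68 of the 4 leukocyte markers above 1 FPKM, and of the fibroblast markers only COL1A1 exceeded 1 FPKM, while COL3A1 and DCN were listed at 0. MYC knockdown replicate 1 stood apart by its interferon-response genes: 13 of them summed to 1201 FPKM there, against 143.8 FPKM in MYC knockdown replicate 2 and 146.2 and 138.9 FPKM in wild type. Depth is unknown, because FPKM does not keep it. The median absolute log2 difference between replicate libraries was 0.20 in the knockdown and 0.08 in wild type.

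Most factor mRNAs were lower in both knockdown libraries than in wild type, with the translocase EEF2, the exchange subunit EEF1B2, the elongation carrier EEF1A1 and 5 subunits of eIF3 among those that passed the test. Of the 61 factors, 53 had enough RNA to be tested (at least 1 FPKM in at least 2 libraries), and each of these had at least 5.74 FPKM in every library. Their median log2 change was −0.22, against 0.04 over all 12953 genes tested, and relative to wild type the median factor stood at −0.19 in the first knockdown library and −0.25 in the second. Fitted changes were below 0 for 47 of the 53 factors, where they were for 44.7% of all genes tested. The groups were apart (both values of a group beyond both of the other) for 41 factors, where 58.6% of all genes were. Of these, 38 were lower in the knockdown, where 25.2% of all genes were, and 3 higher, where 33.4% of all genes were. The tested factors were abundant, with a median of 124.4 FPKM in wild type against 12.7 FPKM over all genes tested. Genes of like abundance were not compared. Together the 61 factors made up 1.82% and 1.95% of the FPKM of all Ensembl genes in the knockdown libraries, against 2.25% and 2.28% in the wild-type libraries.

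Here "fell" and "rose" are used for genes with an adjusted p under 0.10 (limma, Benjamini-Hochberg over all genes tested). By that rule 14 factors changed, where 10.4% of all genes did: 13 fell, where 4.91% of all genes did, and 1 rose, where 5.5% did. The other 39 did not pass. At a threshold of 0.05 limma called 0 factors and 0 of 12953 genes, while at an unadjusted p under 0.05 there were 24 factors, 23 lower and 1 higher, where 25.9% of all genes were, 11.5% lower and 14.4% higher. All 14 calls were lost without wild type replicate 1 or without wild type replicate 2, where the spread came from the knockdown pair alone (median SD of the factors 0.10 on the log2 scale, against 0.03 in wild type), and when no filter on low values was used. Without MYC knockdown replicate 1 or 2, 35 and 31 factors were called lower and 2 higher each time, where 2695 and 2168 of all 12953 genes were called lower and 2609 and 3191 higher. With equal column sums (each library rescaled to 1 common total of FPKM), 10 factors were called lower and 1 higher. The factors' median log2 change was then −0.12, against 0.12 over all genes, of which 587 were called lower and 1643 higher in place of 636 and 713. In that setting 41 of the 53 fitted changes were below 0, 31 factors had groups apart and lower, and 6 apart and higher. Before rescaling, the Ensembl rows summed to 644036 and 615172 FPKM in the knockdown libraries, against 676445 and 668847 FPKM in the wild-type libraries.

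**Figure D1:**
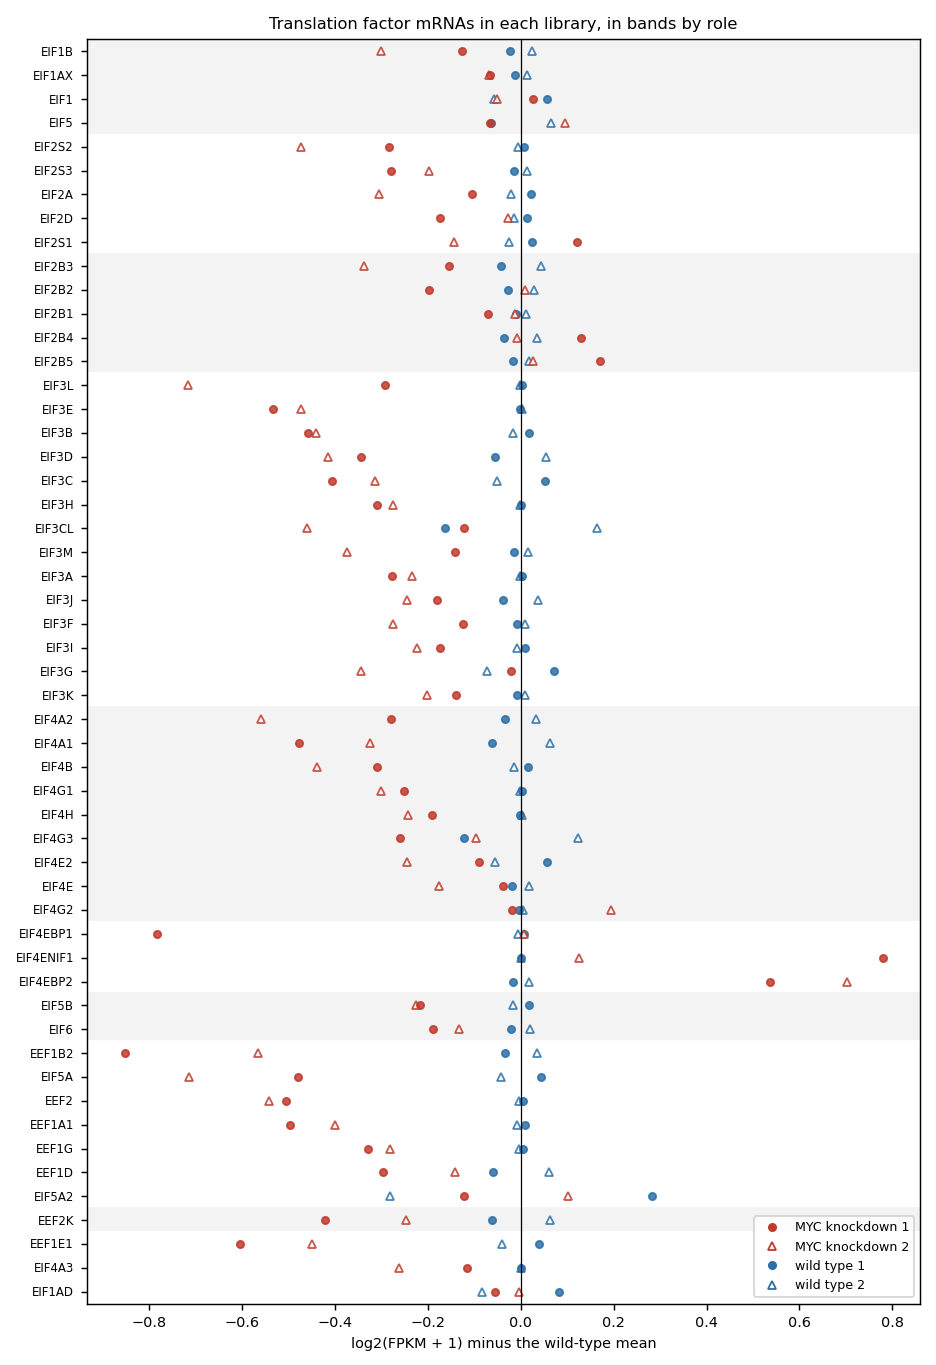
Each row is 1 of the 53 tested factors, in bands by role, and the horizontal axis is log2(FPKM + 1) minus the mean of the 2 wild-type libraries. Red symbols are the MYC knockdown libraries and blue symbols the wild-type libraries (circles replicate 1, open triangles replicate 2). In 38 rows both red symbols lie left of both blue ones, and in the rows of EIF4EBP1 and EIF4ENIF1 the red circle stands far from the red triangle.

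Of the 7 elongation factors tested, 5 fell (4.91% of all genes did) and 6 had groups apart and lower (25.2% of all genes were). Their median log2 change was −0.45, or −0.35 with equal column sums and −0.20 with quantile normalization, where eIF3 (−0.25), eIF4F (−0.21) and eIF2 (−0.21) had lower medians. EEF1A1 (ENSG00000156508, chromosome 6, 73515750 to 73523797, minus strand, in GENCODE release 29 on GRCh38, as for all gene positions here) encodes eEF1A, the carrier of charged tRNAs, and was the most abundant factor, ranking 10 among protein-coding genes in the knockdown and 8 in wild type. It stood at 4246 and 4546 FPKM in the knockdown libraries, against 6036 and 5959 FPKM in the wild-type libraries. The groups did not overlap, and the level in the knockdown was 73.3% of that in wild type (log2 change −0.45, SE 0.08, limma adjusted p = 0.0665). With quantile normalization, which gives every library the same distribution of values, the change was −0.20 and did not pass (limma adjusted p = 0.367).

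Of the 3 subunit genes of eEF1B, the exchange factor of eEF1A, 2 fell, where 4.91% of all genes did. EEF1B2 (ENSG00000114942, chromosome 2, 206159585 to 206162928, plus strand), the catalytic exchange subunit, had 324.6 and 396.1 FPKM in the knockdown libraries, against 573.4 and 601.4 FPKM in the wild-type libraries. Among the tested factors this was the lowest level relative to wild type, 61.3% (log2 change −0.71, SE 0.12, limma adjusted p = 0.0629), and MYC knockdown replicate 1 was the lower of the 2 knockdown libraries. EEF1G (ENSG00000254772, chromosome 11, 62559601 to 62574086, minus strand), the structural subunit, was at 1167 and 1206 FPKM in the knockdown and at 1470 and 1462 FPKM in wild type, and fell by 0.31 on the log2 scale (SE 0.07, limma adjusted p = 0.0910). That call was lost with equal column sums (log2 change −0.21, limma adjusted p = 0.149) and with quantile normalization (−0.01, limma adjusted p = 0.916). EEF1D, the other exchange subunit, was at 311.2 and 346.6 FPKM in the knockdown and at 366.6 and 398.8 FPKM in wild type, without overlap, but did not pass (log2 change −0.22, SE 0.09, limma adjusted p = 0.222).

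EEF2 (ENSG00000167658, chromosome 19, 3976056 to 3985469, minus strand) encodes the translocase. Its level was 344.1 and 335.3 FPKM in the knockdown libraries, against 490.4 and 487.3 FPKM in the wild-type libraries, so the replicates of each group lay close together and far from the other group. The fall to 69.5% of wild type had the smallest p of all factors (log2 change −0.52, SE 0.07, limma adjusted p = 0.0566). EIF5A (ENSG00000132507, chromosome 17, 7306999 to 7312463, plus strand), named as an initiation factor but known to act mainly in elongation through its hypusine residue, was at 327.3 and 278.0 FPKM in the knockdown and at 470.8 and 443.1 FPKM in wild type. It fell by 0.60 on the log2 scale (SE 0.10, limma adjusted p = 0.0677). EEF2K, the calcium-dependent kinase that inhibits eEF2, was low in both groups, at 5.74 and 6.60 FPKM in the knockdown and 7.64 and 8.43 FPKM in wild type, and did not pass (log2 change −0.33, limma adjusted p = 0.193).

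**Figure D2:**
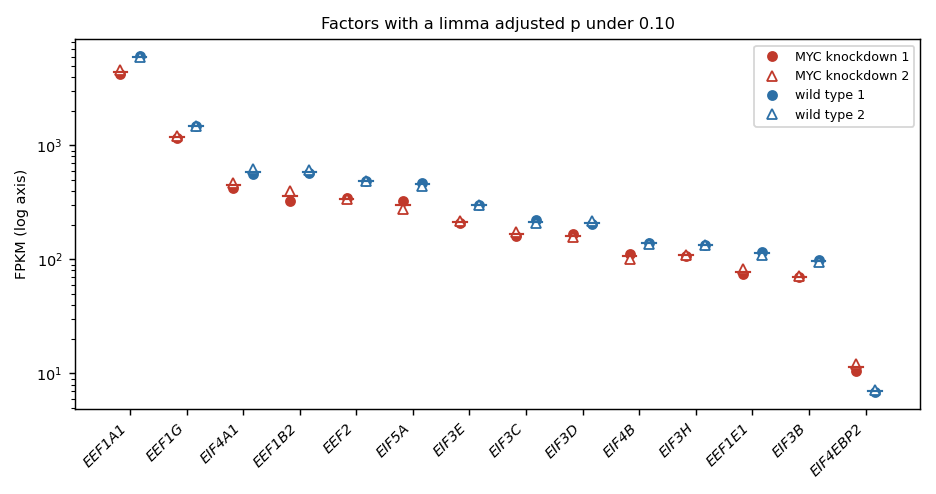
FPKM on a log axis of the 14 factors with a limma adjusted p under 0.10, ordered by their wild-type mean; symbols are libraries and short lines group means (red MYC knockdown, blue wild type). In 13 genes both red symbols lie under both blue ones, and in EIF4EBP2 both lie above.

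The RNA starts of these genes show a feature that the choice of members did not use. RefSeq promoter windows (GRCh38.p14, 250 bases before to 50 after an annotated start) were found for 44 of the 53 tested factors. A TOP-like start was taken as a C at the first transcribed base followed directly by at least 4 further pyrimidines (C or T), a definition chosen after the changes had been seen. It was present at some annotated start of 12 of the 44 factors (27.3%), against 7.52% of the tested genes and 5.14% of all genes with a window. The 5 that fell, EEF1A1, EEF1B2, EEF2, EIF3D and EIF4B, are shown with EIF2D, which had the smallest change of the 12. Each stretch runs from 20 bases before to 10 bases from the start, and capitals mark the pyrimidine run, which in EEF1B2 and EIF3D reaches the end of the stretch shown.
EEF1A1 (chr6:73521023-73521052, minus strand): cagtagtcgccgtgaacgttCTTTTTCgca
EEF1B2 (chr2:206159875-206159904, plus strand): attttccggtctcttcgggtCCTTTTTCCT
EEF2 (chr19:3985454-3985483, minus strand): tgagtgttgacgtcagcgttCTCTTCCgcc
EIF3D (chr22:36529157-36529186, minus strand): ccgctgcgcgcgcatgtttcCTCTTTTCCT
EIF4B (chr12:53006436-53006465, plus strand): cgtgattgcctcatccgggtCTTTTgcgtt
EIF2D (chr1:206612456-206612485, minus strand): gccctggtttccagccgggcCCTTTTCgcg

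All 12 factors with such a start (the others are EIF2A, EIF2S3, EIF3F, EIF3K, EIF3M and EIF4A2) had groups apart and lower in the knockdown, and 5 of them fell. Of all 674 tested genes with such a start, 37.5% had groups apart and lower and 12.2% fell, against 24.8% and 4.40% of the 8289 without it. With ribosomal protein genes left out, these shares were 33.1% and 7.35% with such a start, and 24.7% and 4.24% without it. Among the 32 factors whose windows lacked it, 20 had groups apart in that direction, 6 fell and 1 rose. The median log2 change was −0.32 with the run and −0.17 without it, and −0.22 and −0.08 with equal column sums. With quantile normalization the medians were −0.21 and −0.13. Over all tested genes with a window the medians were −0.03 for 674 genes with the run and 0.04 for 8289 without it, and with ribosomal protein genes left out −0.0025 and 0.05. These are descriptions, since RefSeq starts need not be the starts used in NUGC3 cells. The 9 tested factors without a matched window were EIF3E, EIF3H, EIF3A, EIF3L, EIF3G, EIF3CL, EIF2S2, EEF1D and EIF4EBP1.

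**Figure D3:**
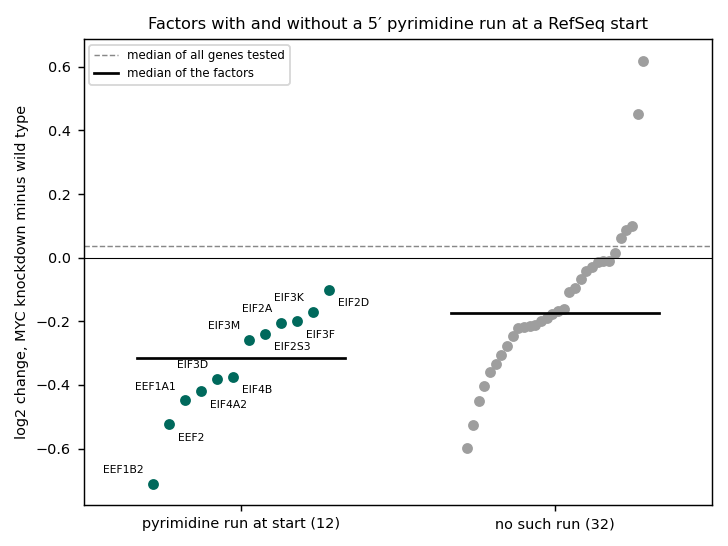
Log2 change of the 44 tested factors with a RefSeq window, 12 with a pyrimidine run at an annotated start and 32 without; points are genes, solid lines the medians of −0.32 and −0.17, and the dashed line the median of 0.04 over all genes tested. The 12 points with the run all lie below 0.

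All 14 genes of the scaffold complex eIF3 had fitted changes below 0, as they did under each scaling tried (median log2 change −0.27). Of the 14, 12 had groups apart and lower, where 25.2% of all genes did, and 5 fell, where 4.91% did. EIF3E (ENSG00000104408, chromosome 8) stood at 207.6 and 216.4 FPKM in the knockdown libraries, against 300.6 and 301.3 FPKM in the wild-type libraries. That is 70.4% of wild type, with little spread in either group (log2 change −0.50, SE 0.07, limma adjusted p = 0.0569). EIF3B (ENSG00000106263, chromosome 7, 2354086 to 2380745, plus strand), a large scaffold subunit that contacts the 40S subunit near the mRNA entry, was at 70.1 and 70.9 FPKM in the knockdown and at 97.9 and 95.5 FPKM in wild type (log2 change −0.45, SE 0.07, limma adjusted p = 0.0608).

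EIF3D (ENSG00000100353, chromosome 22, 36510850 to 36529436, minus strand), a subunit that can itself bind the cap of some mRNAs, had 165.2 and 157.4 FPKM in the knockdown and 202.3 and 218.3 FPKM in wild type, and fell by 0.38 on the log2 scale (SE 0.08, limma adjusted p = 0.0839). EIF3C (ENSG00000184110, chromosome 16, 28688558 to 28735730, plus strand) was at 161.3 and 172.2 FPKM in the knockdown and at 222.3 and 206.6 FPKM in wild type (log2 change −0.36, SE 0.08, limma adjusted p = 0.0914). It has a near-identical copy, EIF3CL, which was at 26.1 and 20.4 FPKM in the knockdown and at 25.3 and 32.0 FPKM in wild type, so how reads were split between them is uncertain. Summed, the pair had 187.4 and 192.6 FPKM in the knockdown and 247.6 and 238.6 FPKM in wild type, a log2 difference of −0.35. EIF3H (ENSG00000147677, chromosome 8) was at 107.7 and 110.3 FPKM in the knockdown and at 133.9 and 133.7 FPKM in wild type (log2 change −0.29, SE 0.07, limma adjusted p = 0.0960). The calls of EIF3C and EIF3H were lost with equal column sums (−0.27 and −0.20, limma adjusted p = 0.133 and 0.155) and with quantile normalization (−0.32 and −0.25, limma adjusted p = 0.119 and 0.139).

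The other 9 eIF3 genes did not pass. EIF3L had 199.4 and 148.3 FPKM in the knockdown and 244.9 and 244.3 FPKM in wild type, a log2 change of −0.51, near that of EIF3E, but its knockdown libraries lay far apart and its SE was 0.15 (limma adjusted p = 0.139). EIF3A, the largest subunit and a backbone of the complex, was at 71.9 and 74.2 FPKM in the knockdown and at 87.6 and 87.3 FPKM in wild type (log2 change −0.26, limma adjusted p = 0.121). EIF3F, EIF3I, EIF3J, EIF3K and EIF3M had log2 changes between −0.26 and −0.17 with groups that did not overlap. EIF3G overlapped between the groups, at 156.9 and 125.3 FPKM in the knockdown and 167.5 and 151.5 FPKM in wild type. The FPKM of the eIF3 genes other than EIF3CL ranged from 36.1 to 324.0 and from 34.5 to 275.8 in the knockdown libraries, and from 40.0 to 353.9 and from 42.2 to 361.6 in the wild-type libraries. In all 4 libraries EIF3J, a loosely bound subunit, was the lowest and EIF3M the highest.

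**Figure D4:**
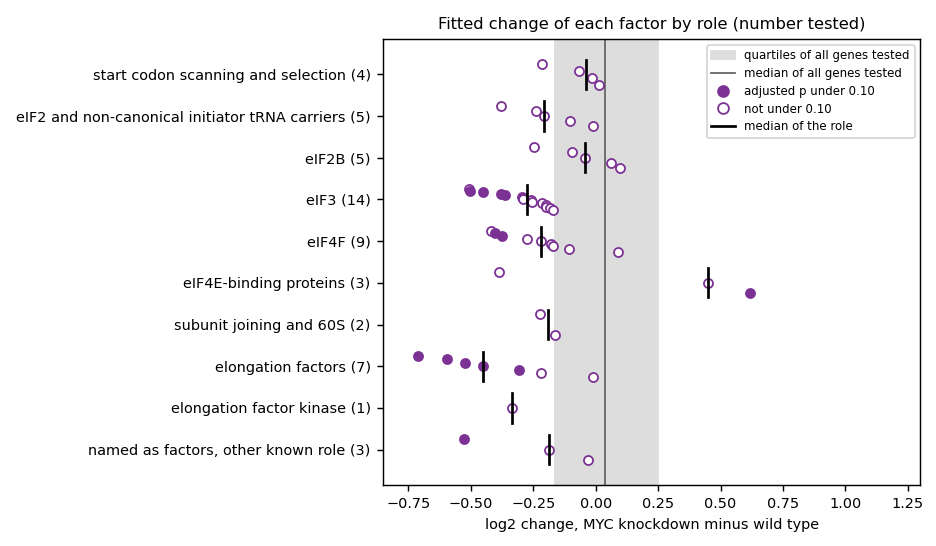
Log2 change (MYC knockdown minus wild type) of each tested factor, in rows by role with the number tested; filled points have a limma adjusted p under 0.10, black lines are role medians, and the grey band and line are the quartiles (−0.16 to 0.25) and median (0.04) of all genes tested. The elongation factors (median −0.45) and eIF3 (median −0.27) lie to the left, and the eIF4E-binding proteins are spread on both sides.

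Within eIF4F and its helpers, fitted changes were below 0 for 8 of the 9 genes tested, among them the helicase and the cap-binding protein. Of the 9, 2 fell, where 4.91% of all genes did, and 7 had groups apart and lower, where 25.2% of all genes did. The median log2 change of the 9 was −0.22 (−0.12 with equal column sums). EIF4A1 (ENSG00000161960, chromosome 17, 7572706 to 7579005, plus strand), the main eIF4A helicase, was at 421.5 and 468.9 FPKM in the knockdown libraries, against 562.9 and 613.6 FPKM in the wild-type libraries (log2 change −0.40, SE 0.09, limma adjusted p = 0.0938). This call was lost with equal column sums (−0.31, limma adjusted p = 0.145) and with quantile normalization (−0.25, limma adjusted p = 0.170). EIF4B (ENSG00000063046, chromosome 12, 53006158 to 53042209, plus strand), which stimulates the helicase, was at 111.2 and 101.6 FPKM in the knockdown and at 139.6 and 136.7 FPKM in wild type, and fell by 0.38 on the log2 scale (SE 0.08, limma adjusted p = 0.0872). EIF4H, a related stimulator, had 265.9 and 256.3 FPKM in the knockdown and 303.3 and 304.0 FPKM in wild type, without overlap, and did not pass (log2 change −0.22, limma adjusted p = 0.142).

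The scaffold genes had fitted changes of different sign. EIF4G1 was at 119.0 and 114.8 FPKM in the knockdown and at 142.1 and 141.5 FPKM in wild type (log2 change −0.28, SE 0.07, limma adjusted p = 0.106), so the groups were apart but the test was not passed. EIF4G2 (also called DAP5), a relative that lacks the eIF4E-binding part, was at 295.7 and 343.1 FPKM in the knockdown and at 298.9 and 300.3 FPKM in wild type. Its groups overlapped, and the log2 change was 0.09 (95% interval −0.16 to 0.34, limma adjusted p = 0.603). EIF4G3 overlapped as well, at 25.3 and 28.5 FPKM in the knockdown and 27.95 and 33.4 FPKM in wild type.

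EIF4E, which binds the mRNA cap, is known as a gene that MYC activates through E-boxes in its promoter. Its level was 70.0 and 63.5 FPKM in the knockdown libraries, against 70.9 and 72.8 FPKM in the wild-type libraries, lower without overlap. The log2 change did not pass and was −0.11 (95% interval −0.33 to 0.12, limma adjusted p = 0.474), or −0.01 with equal column sums. Without MYC knockdown replicate 1, the higher of the pair, it was −0.18, from a fit with 1 knockdown library. Its relative EIF4E2 was at 51.6 and 46.2 FPKM in the knockdown and at 57.2 and 52.8 FPKM in wild type (log2 change −0.17, limma adjusted p = 0.334). The window of EIF4E held CACGTG at 2 places, starting 225 and 72 bases before its RefSeq start, and that of EIF4G1 held it at 2 places, starting 144 and 67 bases before an annotated start. These 4 sites are shown because both genes are core eIF4F subunits whose windows hold the E-box at more than 1 place. Capitals mark the E-box.
EIF4E distal (chr4:98929341-98929370, minus strand): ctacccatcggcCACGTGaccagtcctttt
EIF4E proximal (chr4:98929188-98929217, minus strand): ggacatatccgtCACGTGgccagaagctgg
EIF4G1 distal (chr3:184314450-184314479, plus strand): ggctgtggctgtCACGTGacggggcggggg
EIF4G1 proximal (chr3:184314527-184314556, plus strand): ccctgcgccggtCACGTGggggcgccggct

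CACGTG, which reads the same on both strands, was found in the windows of 11 of the 44 tested factors (25%), against 12.7% of the tested genes and 8.77% of all genes with a window. Besides EIF4E and EIF4G1 these were EIF4B, EIF4H, EIF4A3, EIF1B, EIF2B3, EIF3F, EIF3K, EIF5A2 and EEF2K. Of the 11, EIF4B fell, and of the 33 factors without the letters in their window 10 fell and 1 rose. Groups were apart and lower for 10 of the 11 and for 22 of the 33, and the median log2 changes were −0.21 with and −0.20 without it. Of all 1137 tested genes with CACGTG in a window, 28.8% had groups apart and lower and 6.42% fell (median log2 change 0.02). Of the 7826 tested genes without it, 25.3% had groups apart and lower and 4.78% fell (median 0.04). A match is a description of the letters, and MYC binding was not measured.

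The eIF4E-binding proteins had fitted changes of both signs, and 1 of 3 tested passed, where 10.4% of all genes did. Of the 3, the products of EIF4EBP1 and EIF4EBP2 keep eIF4E from its scaffold until mTOR phosphorylates them. EIF4EBP2 (ENSG00000148730, chromosome 10, 70404379 to 70428618, plus strand) was the 1 factor that rose, at 10.6 and 12.04 FPKM in the knockdown libraries, against 6.91 and 7.11 FPKM in the wild-type libraries (log2 change 0.62, SE 0.11, limma adjusted p = 0.0712). Both knockdown libraries were higher. The call was lost narrowly with quantile normalization (0.53, limma adjusted p = 0.102). EIF4EBP1, the more abundant form, was at 63.7 and 110.9 FPKM in the knockdown and at 110.9 and 109.8 FPKM in wild type, so MYC knockdown replicate 1 was low while MYC knockdown replicate 2 matched wild type (log2 change −0.39, SE 0.27, limma adjusted p = 0.416; 0.0067 without MYC knockdown replicate 1). EIF4ENIF1, the eIF4E transporter 4E-T, was at 16.8 and 10.3 FPKM in the knockdown and at 9.38 and 9.37 FPKM in wild type, again with MYC knockdown replicate 1 far from the others (log2 change 0.45, SE 0.24, limma adjusted p = 0.298). MYC knockdown replicate 1 is the library with high interferon-response genes, and their part in these 2 values was not tested. EIF4EBP3 was listed at 0 in 3 libraries and at 0.36 FPKM in MYC knockdown replicate 1.

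The eIF2 group, which carries the initiator tRNA, had fitted changes below 0 in all 5 genes tested (4 of 5 with equal column sums), with a median of −0.21 on the log2 scale (−0.11 with equal column sums). By limma 0 passed, and 2 had an unadjusted p under 0.05, where 25.9% of all genes did. EIF2S2, the beta subunit, was at 154.6 and 135.4 FPKM in the knockdown and at 189.2 and 187.7 FPKM in wild type, and came closest to the threshold (log2 change −0.38, SE 0.09, limma adjusted p = 0.101). It passed with equal column sums (−0.28, limma adjusted p = 0.0947) and with median-of-ratios size factors (−0.42, limma adjusted p = 0.0651). It also passed when only genes with a mean of at least 5 FPKM or only protein-coding rows were tested (limma adjusted p = 0.0902 and 0.0875). Its log2 change was −0.47 without MYC knockdown replicate 1 and −0.28 without MYC knockdown replicate 2. EIF2S3, the GTP-binding gamma subunit, was at 127.7 and 135.2 FPKM in the knockdown and at 153.6 and 156.7 FPKM in wild type (log2 change −0.24, limma adjusted p = 0.139). In EIF2S1, the alpha subunit that stress kinases phosphorylate, the groups overlapped at 141.6 and 117.6 FPKM in the knockdown and 132.3 and 127.8 FPKM in wild type (log2 change −0.01, 95% interval −0.31 to 0.28, limma adjusted p = 0.963). EIF2A, which can deliver initiator tRNA in another way, was at 50.8 and 44.1 FPKM in the knockdown and at 55.6 and 53.9 FPKM in wild type (log2 change −0.21, limma adjusted p = 0.271). EIF2D, a further such carrier, had a log2 change of −0.10, and in both genes the groups did not overlap.

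Of the 9 genes tested for the exchange factor eIF2B and for start codon selection, 4 had groups apart and lower (EIF2B1, EIF2B3, EIF1AX and EIF1B). EIF2B5 had groups apart and higher. Over all genes tested, 25.2% were apart and lower, 33.4% apart and higher, and 58.6% apart in either direction. Of the 5 eIF2B genes 0 passed by limma, and 0 had an unadjusted p under 0.05, where 25.9% of all genes did. Their log2 changes ran from −0.25 for EIF2B3 to 0.10 for EIF2B5, and their median was −0.04, or 0.05 with equal column sums. EIF2B3 was at 19.5 and 17.02 FPKM in the knockdown and at 21.1 and 22.5 FPKM in wild type (limma adjusted p = 0.233). EIF2B5, which holds the catalytic site, was at 26.9 and 24.2 FPKM in the knockdown and at 23.5 and 24.03 FPKM in wild type, and EIF2B2 was at 20.02 and 23.2 FPKM in the knockdown and at 22.6 and 23.6 FPKM in wild type. Both lay near their wild-type levels, EIF2B2 with overlap. EIF1, which guards the choice of the start codon, was at 247.8 and 234.5 FPKM in the knockdown and at 253.1 and 233.8 FPKM in wild type. Its groups overlapped and the log2 change was −0.01 (95% interval −0.22 to 0.20, limma adjusted p = 0.936). EIF5, which triggers GTP hydrolysis on eIF2, overlapped too, at 68.0 and 76.1 FPKM in the knockdown and 68.0 and 74.5 FPKM in wild type (log2 change 0.01, 95% interval −0.24 to 0.27, limma adjusted p = 0.942). EIF1AX, which encodes the scanning factor eIF1A, was at 49.6 and 49.5 FPKM in the knockdown and 51.6 and 52.5 FPKM in wild type. EIF1B, the paralogue of EIF1, was at 22.7 and 19.97 FPKM in the knockdown and 24.4 and 25.3 FPKM in wild type. Neither passed (log2 changes −0.07 and −0.21, limma adjusted p = 0.601 and 0.263), and the median of these 4 genes was −0.04, or 0.05 with equal column sums.

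EIF5B, the GTPase that joins the ribosomal subunits, and EIF6, which keeps the large subunit from joining too early, were each lower without overlap and did not pass. EIF5B was at 52.5 and 52.2 FPKM in the knockdown and at 62.0 and 60.4 FPKM in wild type (log2 change −0.22, limma adjusted p = 0.155). EIF6 was at 183.9 and 191.1 FPKM in the knockdown and at 206.7 and 212.7 FPKM in wild type (log2 change −0.16, limma adjusted p = 0.233). Some members carry a factor's name for another role. EEF1E1 (ENSG00000124802, chromosome 6, 8073360 to 8102578, minus strand), also called AIMP3, is a scaffold protein of the multi-tRNA-synthetase complex, and it fell to 73.9 and 82.4 FPKM in the knockdown, against 116.0 and 109.8 FPKM in wild type (log2 change −0.53, SE 0.09, limma adjusted p = 0.0650). EIF4A3, a core protein of the exon junction complex deposited by splicing, was at 72.5 and 65.4 FPKM in the knockdown and at 78.6 and 78.6 FPKM in wild type (log2 change −0.19, limma adjusted p = 0.246). EIF1AD had overlapping groups.

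Of the 8 factors that were not tested, EEF1A2, EIF4E3, EIF2S3L and EIF5AL1 were near or under 1 FPKM throughout, the highest value being 1.43 FPKM for EIF4E3 in MYC knockdown replicate 2. EIF4E1B was listed at 0 in all libraries, the readthrough EEF1E1-BLOC1S5 was at 0.21 and 0.18 FPKM in the knockdown and listed at 0 in both wild-type libraries, EIF4EBP3 is given above, and the level of the Y-linked EIF1AY is not given. EEF1A2, the eEF1A form of muscle and neurons, was at 0.39 and 0.43 FPKM in the knockdown and at 0.39 and 0.44 FPKM in wild type.

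Related genes were compared by their ratio of FPKM within each library, which a scaling factor per library cannot change. The test was an exact two-sided permutation of the log2 ratios of (FPKM + 1), which with 2 libraries against 2 cannot give less than p = 0.333, so none of the 9 pairs could pass. The 6 pairs with groups apart had that p, and 0.50 after Benjamini-Hochberg adjustment over the 9 pairs. EIF4EBP1 exceeded EIF4EBP2 by 6.005 and 9.21 times in the knockdown libraries, against 16.0 and 15.4 times in the wild-type libraries (log2 difference −1.01, exact permutation p = 0.333). The helicase pair overlapped between the groups: EIF4A1 exceeded EIF4A2 by 4.12 and 5.58 times in the knockdown and by 4.63 and 4.82 times in wild type (log2 difference 0.02), and EIF4A2 itself was at 102.3 and 84.0 FPKM in the knockdown and at 121.5 and 127.3 FPKM in wild type (log2 change −0.42, SE 0.12, limma adjusted p = 0.121). EIF5A exceeded EIF5A2 by 29.5 and 21.2 times in the knockdown and by 31.4 and 45.2 times in wild type. EIF5A2 was low and uneven, at 11.1 and 13.1 FPKM in the knockdown and at 14.98 and 9.81 FPKM in wild type. EIF4G1 stood at 0.402 and 0.335 times EIF4G2 in the knockdown and at 0.475 and 0.471 times in wild type (log2 difference −0.36). EIF1 exceeded EIF1B by 10.9 and 11.7 times in the knockdown and by 10.4 and 9.26 times in wild type, so the groups were apart by a log2 difference of 0.20. The pairs EIF4E/EIF4E2 and EIF4G1/EIF4G3 overlapped (log2 differences 0.06 and −0.10), and in EEF1A1/EEF1A2 and EIF4E/EIF4E3 the second gene was too low for its ratio to be read.

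**Figure D5:**
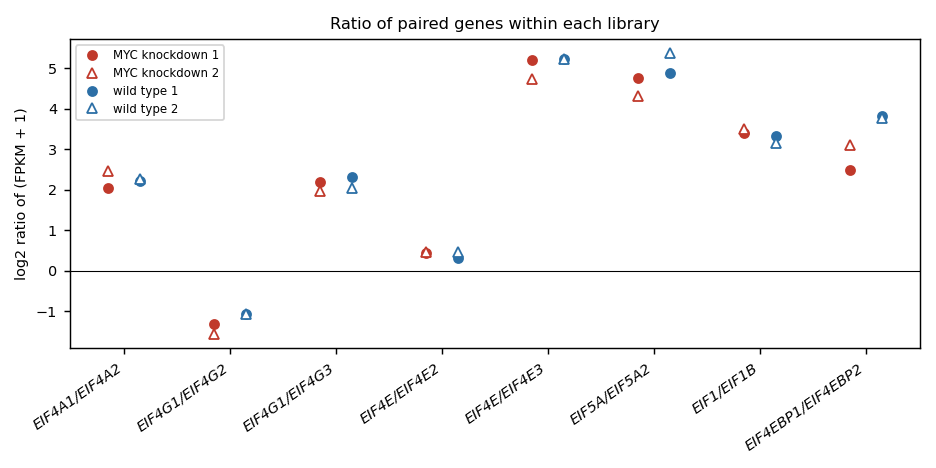
Log2 ratio of (FPKM + 1) between paired genes within each library, for 8 pairs, with red symbols for MYC knockdown and blue for wild type (circles replicate 1, open triangles replicate 2). The EIF4EBP1/EIF4EBP2 ratio lies lower in both knockdown libraries (2.48 and 3.10) than in both wild-type libraries (3.82 and 3.77), and the EIF4A1/EIF4A2 symbols overlap.

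Several members have close copies elsewhere in the genome, and their single values depend on how reads were shared. Adding the rows of its pseudogenes to EEF1A1 gave 4278 and 4585 FPKM in the knockdown and 6082 and 6012 FPKM in wild type, with the copies holding 0.801% of the sum in the knockdown and 0.815% in wild type, so the log2 difference stayed at −0.45. The sums for EEF1B2, EIF5A, EIF4A1 and EIF3E with their copies differed by −0.71, −0.60, −0.40 and −0.50 on the log2 scale, against −0.71, −0.60, −0.40 and −0.50 for the genes alone. Whether the counting used strand is not given, so reads of genes overlapping on the opposite strand could be shared. EIF4A1 also overlaps the readthrough SENP3-EIF4A1 on its own strand. The most abundant opposite-strand partner of a called factor was NDUFS1, opposite EEF1B2, at 73.8 and 67.0 FPKM in the knockdown and at 72.2 and 76.5 FPKM in wild type.

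Other genes that act with these factors were read from the same fit, in a list of 51 genes of which 50 were tested. In it 6 fell, where 4.91% of all genes did, and 0 rose, and the median log2 change was −0.10. BZW2, an eIF5-mimic protein that competes with eIF5, was at 25.4 and 28.6 FPKM in the knockdown and at 50.1 and 48.4 FPKM in wild type, the lowest of this list relative to wild type (log2 change −0.85, SE 0.10, limma adjusted p = 0.0556). Its paralogue BZW1 was at 232.5 and 242.2 FPKM in the knockdown and at 357.9 and 362.1 FPKM in wild type (log2 change −0.60, limma adjusted p = 0.0556). Both paralogues had replicates close together and groups far apart. PAIP2, which inhibits poly(A)-binding protein, was at 50.2 and 47.5 FPKM in the knockdown and at 74.8 and 74.5 FPKM in wild type (log2 change −0.60, limma adjusted p = 0.0566). PABPC4, a poly(A)-binding protein, was at 51.9 and 44.4 FPKM in the knockdown and at 68.8 and 69.1 FPKM in wild type (log2 change −0.51, limma adjusted p = 0.0792). The termination factor GSPT1 (eRF3a) was at 62.0 and 61.9 FPKM in the knockdown and at 82.2 and 81.3 FPKM in wild type, and fell by 0.39 (limma adjusted p = 0.0688). The ribosome recycling factor ABCE1 was at 52.2 and 53.3 FPKM in the knockdown and at 68.4 and 67.2 FPKM in wild type, and fell by 0.36 (limma adjusted p = 0.0823). Of the 4 eIF2 alpha kinases 0 passed by limma (1 at an unadjusted p under 0.05), and EIF2AK2 (PKR), itself an interferon-response gene, was at 37.4 and 20.8 FPKM in the knockdown and at 21.6 and 22.1 FPKM in wild type. Its 1 high value was again that of MYC knockdown replicate 1. Of the 7 genes of mTORC1 and S6 kinase 0 passed by limma (1 at an unadjusted p under 0.05, MLST8, with a log2 change of −0.42). Of the 9 hypusine and diphthamide enzymes that modify eIF5A and eEF2, 0 passed (0 at an unadjusted p under 0.05). Over all genes tested, 25.9% had an unadjusted limma p under 0.05.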

How the data were processed

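RNA of 4 NUGC3 libraries was measured. The labels' protocols name a Trizol extraction of total RNA and a standard Illumina library protocol, and the submitters' processing notes name STAR and RSEM. Versions, build, annotation and strandedness were not given in the sources used here. Deposited by the authors were values in FPKM per gene with 2 decimals. That unit is inferred: the columns neither sum to 1 fixed total nor hold whole numbers, but TPM with some rows left out would look alike. Without counts, no count test or counting interval was possible.

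Of 344810 rows, the 53777 Ensembl rows were used. A gene entered the test if it reached 1 FPKM in at least 2 libraries (12953 genes). Values as log2(FPKM + 1) were fitted with limma 3.58.1 (mean trend, no covariate) in R 4.3.3, with Benjamini-Hochberg adjustment over all these genes. Each log2 change is the knockdown minus the wild-type mean on that scale and understates low genes. Members, lists, the 0.10 threshold and the tests were chosen with earlier results of these data known. Values per library are given for MYC, the 3 members with the smallest p in each role, called members, paralogue pairs, the 5 most abundant members, and called pathway genes; other members were named after their values were seen.

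Data for this comparison were simulated with 12953 genes, 200 of them changed. At 0.10 the fit recovered on average 0, 91 and 168.2 genes at log2 changes of 0.5, 1 and 2. False calls averaged 0, 6.2 and 17.1. These averages hold only for that number of changed genes. In the measured libraries factors passed at changes smaller than 0.5, such as −0.29 for EIF3H. The simulation therefore does not tell how readily a change of these factors would be called. Promoter windows and their sequences are from RefSeq (GRCh38.p14). Same-numbered libraries did not deviate together, so numbers were not used as pairs. Alternatives were filters, a pseudocount of 0.1, 3 scalings, protein-coding rows, a replicate block, each library left out and a threshold of 0.05. Sums with near-identical copies were added after seeing the data.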

Additional observations from a re-analysis of the deposited data

How the results depend on the processing

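The number of calls depends on the setting, and the lower direction of the factors' median was kept in every alternative run. At a threshold of 0.05 limma called 0 genes, 0 lower and 0 higher factors. Without the filter on low values (24879 genes) it also called 0 genes, 0 lower and 0 higher factors. At an unadjusted p under 0.05 limma had 23 lower factors and 1 higher in the main fit. With a replicate block it called 723 genes, 5 factors lower and 0 higher, all 5 among the 14 called without it; the correlation of same-numbered libraries' deviations was −0.0059, so the numbers show no pairing. With equal column sums it called 2230 genes, 6 factors had groups apart and higher, and the factors' median was −0.12; it was −0.26 with median-of-ratios size factors. With quantile normalization 8 factors were lower and 0 higher, of 654 genes lower and 552 higher. Leaving out each library gave 0 to 5359 genes called, 0 to 35 factors lower and 0 to 2 higher, 4 to 6 with groups apart and higher, and a median of −0.25 to −0.19; the group left with 1 library was assumed to have the spread of the other. The cause of these shifts was not tested beyond the scaling's own construction.

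Changes of sign occurred for factors that did not pass. With equal column sums EIF1 was at 0.082, EIF1AX at 0.026, EIF2S1 at 0.084, EIF2B1 at 0.051, EIF5A2 at 0.079 and EIF1AD at 0.063; with quantile normalization EIF1 was at 0.016 and EIF2S1 at 0.037; with median-of-ratios size factors EIF5 was at −0.027. Leaving out a library gave −0.070 to 0.044 for EIF1, −0.066 to 0.095 for EIF5, −0.14 to 0.12 for EIF2S1, −0.20 to 0.0080 for EIF2B2, −0.0085 to 0.13 for EIF2B4, −0.019 to 0.19 for EIF4G2, −0.78 to 0.0067 for EIF4EBP1, −0.29 to 0.27 for EIF5A2 and −0.11 to 0.053 for EIF1AD.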
